A study of Mus musculus with 4 samples.

Results

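SCL peaks were described at 7 regulators of later lymphoid and myeloid cells in mesoderm, the tissue from which the first blood cells arise. The regulators are Ebf1, Pax5, Spi1 (listed as Sfpi1 in the annotation used), Cebpa, Irf8, Tcf7 and Il7r. A peak was given to the protein-coding gene with the transcription start site (TSS) nearest to the peak's summit, where the start of any transcript of such a gene counted, coding or not. By this rule 15 of the 12885 peaks belonged to the 7 genes, and the rule used no measured level. The nearest TSS was that of a non-coding transcript of the gene at 10 of the 15 peaks, and all 15 went to the same genes with TSSs of coding transcripts alone. The deposited list holds more peaks than the loci the study counts as bound, and all ranks and shares are over the whole list. The study's methods name a filter in a genome viewer, MIG, after peak calling, but not its criteria, and whether it makes up this difference is not stated. SCL, the product of Tal1, was mapped by chromatin immunoprecipitation and sequencing (ChIP-seq) in FLK1+ mesoderm, sorted at day 3.5 from embryoid bodies of wild-type mouse embryonic stem cells (strain C57Bl/6 X Sv129). There were 2 SCL ChIP libraries, made with an in-house rabbit antiserum (SCL rabbit anti-serum), and 2 input libraries of the same chromatin without immunoprecipitation. Both groups were wild type and of the same day, and the ChIP came from independent differentiations. The list is a pooled call over these libraries, so each peak has a single value and no spread between replicates, and no test between groups could be made. The cell sort could not be checked from a peak list, since markers are measured as RNA or protein.

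SCL is a basic helix-loop-helix factor that is required for all blood cells. It pairs with an E protein to bind the E-box, a short DNA word, and in blood and endothelial precursors it often sits in a complex with LMO2, LDB1 and a GATA factor. A composite site, in which part of an E-box stands a fixed short distance from a GATA word, is a familiar mark of that complex. The 7 genes act much later. EBF1 and PAX5 set up and hold the B cell programme, TCF7 acts early in T cell development, and IL7R is the receptor chain through which developing lymphocytes receive interleukin signals. PU.1, made from Spi1, serves both myeloid and B cells, C/EBPα drives granulocyte and monocyte fate, and IRF8 directs monocytes and dendritic cells. The question was whether SCL already occupied such loci in mesoderm.

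SCL peaks stood at 5 of the 7 genes, namely Ebf1 (5 peaks), Spi1 (4), Irf8 (3), Tcf7 (2) and Pax5 (1). Over all 22367 protein-coding genes, 28.9% had at least 1 peak. No listed peak was nearest to Cebpa or Il7r. There were at least 3 peaks at 3 of the 7 genes, against 6.54% of all genes, and at least 4 peaks at 2 of the 7, against 3.62%. With 7 genes the Wilson 95% interval of the share with a peak ran from 35.9% to 91.8%, and the genes were chosen by hand, so these shares are a description. They were not adjusted for the stretch of genome lying nearest to a TSS of each gene. Its median was 45.5 kb over all genes and 108.5 kb over genes with a peak. Among the 7 it ran from 31.1 kb (Spi1) to 793.4 kb (Ebf1), and its part in the shares was not tested.

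The DNA under the strongest peak of each bound gene is printed to show which words SCL's partners and SCL itself could read there. Each sequence is the plus strand of NCBIM37 (the same build as mm9), 5′ to 3′, and runs 50 bp to each side of the summit, apart from the Spi1 promoter peak, where a stretch of 30 bases is given. In Ebf1, the capitals mark GATA motifs and the E-box word CAGCTG (chr11:44560383-44560483). In Pax5 they mark a GATA motif on the minus strand (chr4:44670300-44670400). At the Spi1 promoter (chr2:90936877-90936906), Irf8 (chr8:123427893-123427993) and Tcf7 (chr11:52118893-52118993) they mark both parts of the composite. A peak further upstream in Spi1 (chr2:90923152-90923252) is added, and its capitals mark RUNX words. It was chosen after its values were seen.
Ebf1: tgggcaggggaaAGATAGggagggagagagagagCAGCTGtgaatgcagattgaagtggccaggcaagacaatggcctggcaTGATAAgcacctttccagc
Pax5: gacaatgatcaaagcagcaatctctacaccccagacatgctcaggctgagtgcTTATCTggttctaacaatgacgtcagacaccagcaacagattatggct
Spi1 promoter: aggggacTATCtcccagtggCAGgcccttc
Spi1 upstream: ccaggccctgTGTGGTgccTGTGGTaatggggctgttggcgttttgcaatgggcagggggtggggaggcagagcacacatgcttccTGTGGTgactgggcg
Irf8: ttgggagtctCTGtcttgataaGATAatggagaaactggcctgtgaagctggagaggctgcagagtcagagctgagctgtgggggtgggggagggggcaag
Tcf7: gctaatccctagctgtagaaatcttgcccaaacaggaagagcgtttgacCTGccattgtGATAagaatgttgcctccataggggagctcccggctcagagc

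**Figure D1:**
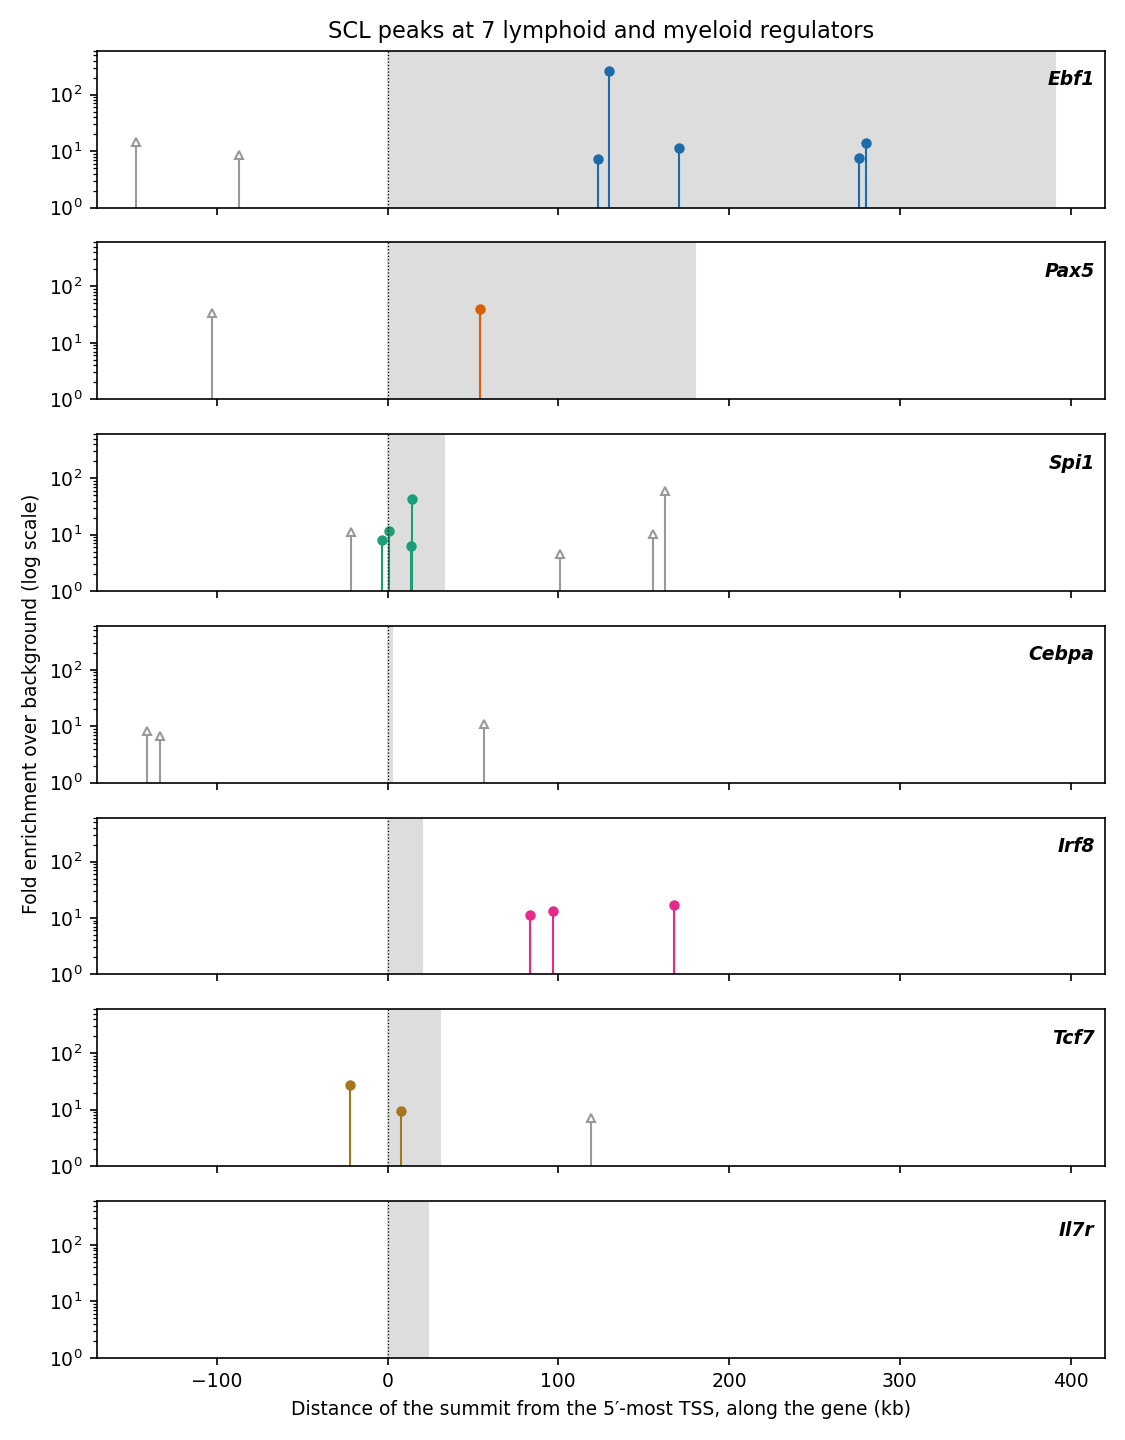
Each panel shows the listed peaks around a gene, with the distance of the summit from the gene's 5′-most TSS (kb, in the direction of transcription) on the horizontal axis and fold enrichment on a log vertical axis. Filled circles are peaks nearest to the named gene, open triangles are peaks nearest to another gene, and grey bands are the gene bodies; the Ebf1 peak at 259-fold stands far above the others, and Cebpa and Il7r have no filled circle.

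Peak height was read as fold enrichment, the authors' ratio of ChIP fragments at the summit to the local background, each raised by 1. The 15 peaks ran from 6.16-fold to 259-fold with a median of 11.7, and an interval from order statistics for that median of 7.87 to 27.1. All 12885 peaks had a median of 11.1 and quartiles of 7.84 and 20.1. At or above that upper quartile there were 4 of the 15 peaks (26.7%, Wilson 95% interval 10.9% to 52.0%), and 25.0% of the whole list. At least 10-fold enrichment was seen in 10 of the 15, and in 56.6% of the list. The median without the strongest peak was 11.6, and without all Ebf1 peaks it was 12.5. As a group, the peaks at these genes were thus about as high as the list, also in the share at or above its upper quartile. The 259-fold peak ranked 8 of 12885.

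The number of fragments behind each value differed widely. The pileup, the count of ChIP fragments stacked at the summit, had a median of 71 fragments and ran from 24 to 1618, and over the whole list its median was 53 and its lowest value also 24. The local background had the same median of 3.67 fragments in both sets. Intervals given after single folds are exact Poisson 95% intervals of the pileup at a fixed background. They cover counting error only and hold no variation between differentiations.

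**Figure D2:**
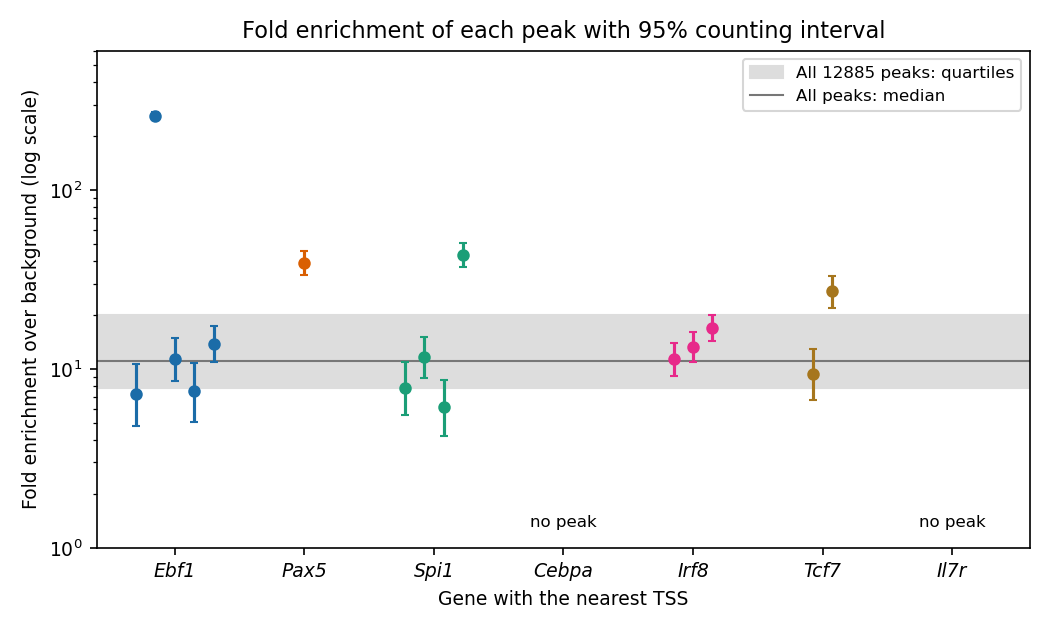
Fold enrichment (log axis) of each of the 15 peaks, grouped by gene in genome order, with exact Poisson 95% counting intervals, over the quartiles (band, 7.84 to 20.1) and median (line, 11.1) of all 12885 peaks. The strongest peaks of Ebf1, Spi1, Pax5 and Tcf7 lie above the band, and all 3 Irf8 peaks lie within it.

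Ebf1, which starts the B cell programme, held the strongest peak of the 7 genes and the largest number of them under the rule used. The gene lies on the plus strand at chr11:44430819-44821593, and all 5 summits fell in its introns. The highest, at chr11:44560165-44560705 with its summit at 44560433, was enriched 259-fold (counting interval 247.0 to 272.4), from a pileup of 1618 over a background of 5.24. It ranked 8 of 12885 by fold, and by their strongest peak Ebf1 ranked 8 of the 6471 genes with a peak. The summit stood 129.6 kb into the gene from the 5′-most TSS and 125.2 kb from the nearest annotated one. The start of a non-coding gene, Gm12158, was nearer still, at 84255 bp. The next highest Ebf1 peak had a fold 18.7 times lower and a pileup 22.8 times lower, so the locus was a very tall peak beside much lower ones, of which those at 13.9-fold and 11.4-fold were just above the median of the list.

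Around this tall peak, its weakest neighbour lay 6.47 kb upstream with its summit at 44553961. It had 24 fragments and a fold of 7.28 (4.77 to 10.7). At 44601734 the fold was 11.4 (8.53 to 14.8) from 52 fragments, and at 44710964 it was 13.9 (10.9 to 17.4) from 71 fragments. A further peak, 4.12 kb before the latter with its summit at 44706849, had 27 fragments and a fold of 7.54 (5.06 to 10.8). The counting intervals of these 4 minor peaks overlapped in part: those at 11.4-fold and 13.9-fold overlapped each other, whereas the 2 lowest ended just below the interval at 13.9-fold. More peaks than at Ebf1 were found at 282 of all genes.

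The Ebf1 gene takes up much of the genome near it. The stretch of genome lying nearest to an Ebf1 TSS was 793.4 kb, against a median of 45.5 kb over all genes, and it held 6.30 peaks per Mb. The genome as a whole held 4.85 peaks per Mb. By this measure the density at Ebf1 was close to that of the genome, and it was the height of the single peak that stood out. All 5 peaks were assigned through starts of non-coding processed transcripts of the gene, those at 44601734, 44706849 and 44710964 through 44725640 and the 259-fold and 7.28-fold peaks through 44435263. From the nearest start of a coding transcript the summits were 122.3 to 279.3 kb away.

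Pax5, which keeps B cells committed, had a single peak (chr4:44670000-44670539, summit 44670350). It was enriched 39.1-fold (33.3 to 45.6), from 161 fragments over a background of 3.14, and ranked 1359 of 12885. The gene lies on the minus strand at chr4:44544017-44724318, and the summit fell in an intron, 54.0 kb downstream of the 5′-most TSS, 26.3 kb from the nearest, which is that of a non-coding transcript, and 52.9 kb from the nearest coding one. No other listed summit lay within 156 kb of it. The nearest one, at 44826821 and 102.5 kb upstream of Pax5, was 34.1-fold enriched and belonged to Zcchc7 by the same rule. By its strongest peak Pax5 ranked 1150 of 6471 genes, although 2840 genes had more peaks.

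Spi1, the gene of PU.1, was the only one of the 7 with peaks at its promoter, and it had the densest cluster. It lies on the plus strand at chr2:90922547-90955913 and has annotated TSSs at 90922547, 90922565, 90936253 and 90936937. The strongest peak (chr2:90936676-90937463, summit 90936900) lay 37 bp before the last of these, in an exon annotated as UTR. Its fold was 43.5 (37.3 to 50.5) from 172 fragments over a background of 2.98, which ranked 1168 of 12885. A second summit at 90936378, 522 bp before it and 125 bp after the TSS at 90936253, had a fold of 6.16 (4.22 to 8.70) from 30 fragments. The promoter thus carried a high and a low peak side by side.

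The other Spi1 peaks lay at and before the upstream TSSs. The summit at 90923202 stood 637 bp after the TSS at 90922565 and 13.7 kb before the last TSS. There the fold was 11.7 (8.95 to 15.1) from 58 fragments, second in the gene and 3.71 times lower than that of the strongest. The summit at 90919119, 3.43 kb before the nearest TSS and outside the gene, had a fold of 7.87 (5.52 to 10.9) from 34 fragments. These counting intervals overlapped, as did those at 7.87-fold and 6.16-fold. The 4 peaks fell in a stretch of only 31.1 kb nearest to a Spi1 TSS, which comes to 128.8 peaks per Mb against 4.85 in the genome. An upstream regulatory element of Spi1 that is read by RUNX1 is well known from blood cells. Whether the peak at 90923202 lies in it was not tested.

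Irf8 had 3 peaks of like height, all far downstream of the gene (chr8:123260258-123280594, plus strand). Their summits at 123343942, 123357115 and 123427943 stood 83.7, 96.9 and 167.7 kb from the 5′-most TSS, and 80.1, 93.2 and 164.1 kb from the nearest start of a coding transcript. The folds were 11.4 (9.14 to 14.0), 13.3 (11 to 16) and 17.0 (14.3 to 20.1), from 86, 110 and 137 fragments. The highest exceeded the lowest by more than the counting error, with intervals that did not overlap (the gap between them was small), and the middle one could not be told from either. No peak lay in Irf8 itself, and the annotation places all 3 in introns of Gm20388, a very long gene model that also runs across Irf8.

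The Irf8 region had a higher background than the other loci. Its 3 backgrounds were 6.64, 7.34 and 7.12 fragments, and those of the other 12 peaks ran from 2.43 to 5.24. Chromosome 8 as a whole had a median of 5.24 over 868 peaks, against 3.67 for the list. Thus 2 Irf8 peaks with more fragments than the stronger Tcf7 peak (92) had lower folds than its 27.1. The part of this background in the Irf8 values was not tested.

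**Figure D3:**
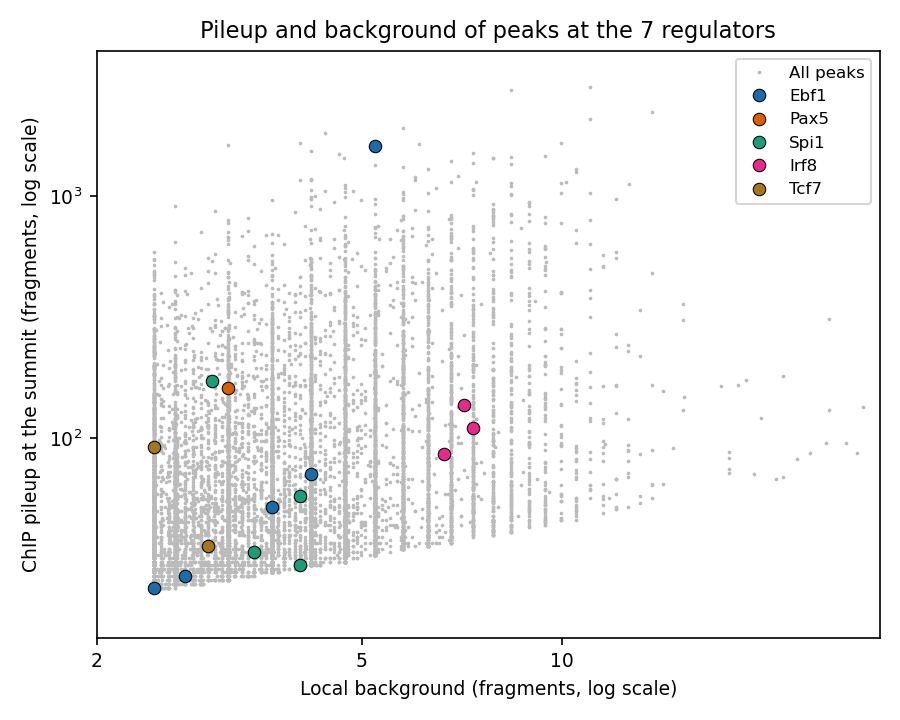
Pileup at the summit against local background (fragments, both axes log) for the peaks of 5 genes (coloured circles) over all peaks (grey dots, with 74 peaks beyond the axes). The 3 Irf8 peaks stand to the right at backgrounds of 6.64 to 7.34 fragments, and the top Ebf1 peak is the highest of the 15 at 1618 fragments.

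Tcf7, an early T cell factor, had a peak on each side of its TSSs. The gene lies on the minus strand at chr11:52065873-52096681. The stronger peak (chr11:52118800-52119113, summit 52118943) lay 22.3 kb upstream between genes. Its fold was 27.1 (21.9 to 33.1), from 92 fragments over a background of 2.43. That is the lowest background in the list, a value that 1893 peaks had, and the fold rests on it. The weaker one, at 52089030, stood in an intron 6.72 kb downstream of the nearest TSS. It had a fold of 9.40 (6.66 to 12.9) from 36 fragments. The intervals did not overlap, and the ratio of the folds was 2.88. The weaker summit was also 527 bp from the TSS of a non-coding gene, A630014C17Rik, to which it could equally be assigned.

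At Cebpa and Il7r the list held no peak to describe, and the surroundings differed. Around Cebpa (chr7:35904312-35906945, plus strand) the nearest summit was 56.5 kb downstream, 11-fold enriched from 62 fragments, and lay nearer to Slc7a10. On its other side the nearest was 133 kb away, 6.64-fold enriched, and belonged to Pepd. Around Il7r (chr15:9435916-9459631, minus strand) the nearest summit was 341 kb away, 6.65-fold enriched from 37 fragments and nearest to Lmbrd2, and on the other side there was none for 917 kb. The stretches nearest to the TSSs of Cebpa and Il7r measured 64.9 kb and 156.4 kb. The list holds only peaks past the authors' threshold, so weaker binding at these loci would not be seen.

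By position, the 15 peaks were a mixed set. Their summits lay inside the gene they were assigned to in 10 of 15 cases, against 39.2% of all peaks. Within 1 kb of the nearest TSS there were 3, all at Spi1, against 7.59%. Over 100 kb from it there were 4, of which 3 were in Ebf1 and 1 beyond Irf8, against 18.5%. From starts of coding transcripts alone, an alternative chosen after seeing the data, there were 6, with all 5 Ebf1 peaks among them, against 19.8%. The median distance to the nearest TSS was 22.3 kb and in the whole list 24.1 kb, but from coding starts it was 80.1 kb against 28.4 kb. Upstream of their nearest TSS were 6 of the 15 (40.0%) and 48.9% of all. From coding starts there were 3, against 47.2%, since 3 of the 6 were Ebf1 intron peaks that lie before the non-coding start at 44725640. The median distance to the nearest listed summit was 6.47 kb, against 27.2 kb in the whole list. It was 9.82 kb without the strongest peak and 13.2 kb without the Ebf1 peaks. Median peak width was 366 bp, against 397 bp.

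The words under the summits were searched within 50 bp of the summit, on both strands. The GATA motif was GATA preceded by A or T and followed by A or G (such as AGATAG), the E-box CANNTG, and CAGCTG, itself an E-box, was also counted alone. The composite was CTG and GATA on the same strand with 7 to 9 bases between them, and its GATA can be part of a GATA motif. The ETS word was AGGAA, and the RUNX words were TGTGGT and TGCGGT. A match is a word in the window and not a shown site of binding. Windows of equal size 1 kb to each side of each summit served as background.

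A GATA motif was found at 10 of the 15 summits (66.7%, Wilson 95% interval 41.7% to 84.8%), at 73.2% of all summits and in 17.8% of the flanking windows. The E-box was found at 7 (46.7%, 24.8% to 69.9%), at 52.6% of all summits and in 42.4% of flanks. CAGCTG stood at 3 (20%), at 14.1% of all and in 4.70% of flanks. The composite stood at 6 (40.0%, 19.8% to 64.3%), at 32.9% of all and in 3.07% of flanks. In the 30 flanks of these 15 peaks, the GATA motif stood in 13.3%, the E-box in 46.7%, the same share as at their summits, and CAGCTG and the composite in none. For each of these words the share in the whole list lay inside the interval of the 15 peaks. Where a GATA motif was present, its nearest copy was a median of 19.0 bp from the summit (n = 10), and 16.5 bp in the whole list.

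**Figure D4:**
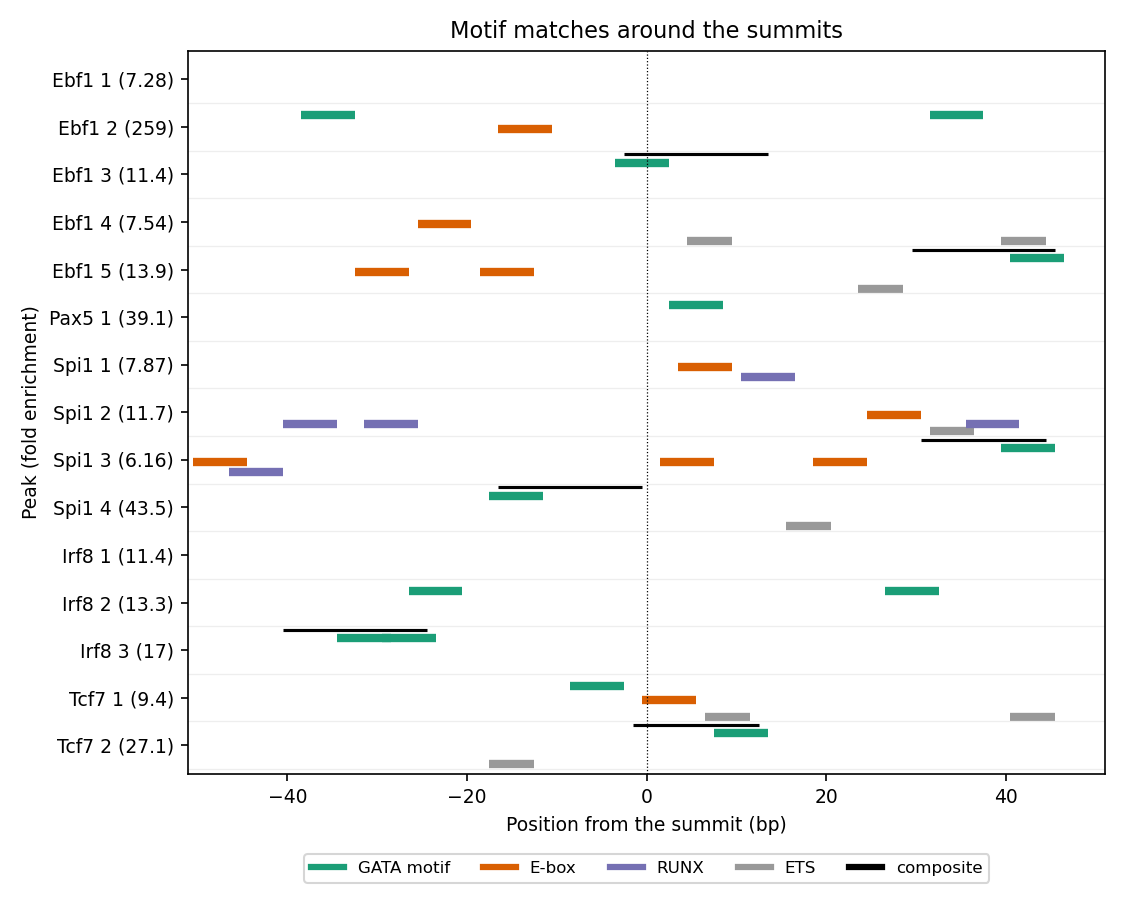
Matches to 5 kinds of DNA word within 50 bp of each of the 15 summits, by position from the summit (bp), with peaks named by gene, number in genome order and fold. CAGCTG is drawn as an E-box; the composite appears at 6 peaks spread over Ebf1, Spi1, Irf8 and Tcf7, and 2 peaks carry none of these words.

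The composite was shared by 4 of the 5 bound genes. In the Spi1 promoter peak it stood on the minus strand with 9 bases between its parts and ended 1 bp before the summit. In the stronger Tcf7 peak the spacer was 7 bases and the composite ran across the summit. In the highest Irf8 peak, with a spacer of 9, it lay to the left of the summit on the plus strand, and the other 2 Irf8 peaks had none. Ebf1 had it under the peaks at 11.4-fold and 13.9-fold, both with 9 bases, and the low Spi1 promoter peak had it with 7. The median fold of the 6 peaks with it was 15.4 and of the 9 without it 11.4. In the whole list these medians were 13.3 and 10.3.

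The tallest Ebf1 peak and the Pax5 peak carried no composite. Under the Ebf1 summit, GATA motifs began 38 bp before and 32 bp after it, and CAGCTG began 16 bp before it. Of the 10 peaks with the highest fold in the list, 6 had the composite, 4 had CAGCTG and 8 had a GATA motif. Of the top 1000, 525 had the composite and 860 a GATA motif. Under the Pax5 summit, the only word found was a GATA motif 3 bp away, and there was no E-box in the window.

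ETS words stood at 6 of the 15 summits (40.0%), at 51.9% of all summits and in 33.1% of flanks, and RUNX words at 3 (20%), at 10.7% of all and in 8.62% of flanks. All 3 peaks with RUNX words were at Spi1. The peak at 90923202 held 3 copies, beginning 40 and 31 bp before and 36 bp after its summit, and no GATA motif. Only 6 of 12885 peaks, or 0.0466%, held at least 3. Neither a GATA motif nor an E-box was found at 2 of the 15, the weakest Ebf1 peak and the Irf8 peak at 123343942, which had none of the other words either. Such peaks made up 12.1% of the list.

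Peaks were found on both the lymphoid and the myeloid side, and no difference between the sides was tested. The lymphoid genes (Ebf1, Pax5, Tcf7 and Il7r) had 8 peaks at 3 of 4 genes, with a median of 12.6-fold and a highest of 259-fold. The myeloid genes (Spi1, Cebpa and Irf8) had 7 at 2 of 3, with a median of 11.7-fold and a highest of 43.5-fold. On each side 3 peaks held the composite, and the RUNX words were all on the myeloid side. Ordered by their strongest peak, the genes ran Ebf1, Spi1, Pax5, Tcf7 and Irf8. The counting intervals of Spi1 and Pax5 overlapped, and those of the other neighbours in this order did not, with Pax5 (from 33.3) and Tcf7 (up to 33.1) nearly in contact.

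Wider lists of lineage genes, without the 7, put these loci in context. Of 32 lymphoid and 28 myeloid genes fixed for them, 31 and 26 were matched to the annotation. Ptcra, Cebpd and Gfi1 were not matched and not counted, although the study names Gfi1 as a direct target of SCL. Of the 31 lymphoid genes, 15 had a peak (48.4%, 32.0% to 65.2%), with a median strongest fold of 11.9. Of the 26 myeloid genes, 14 had one (53.8%, 35.5% to 71.2%), with a median of 23.1. For all genes with a peak it was 14.4, beside the 28.9% of genes with a peak. These shares, too, were not adjusted for the stretch of genome nearest to each gene. Among lymphoid genes, Ikzf1, a factor of early lymphocytes, had 5 peaks up to 49.9-fold. Foxo1 and Id2 also had 5 each, and Flt3, the receptor of early progenitors, had 1 of 30-fold and Gata3, a T cell factor, 1 of 20.4-fold. Among myeloid genes, Maf had 12 peaks and Zeb2 had 9, up to 77.1-fold, and the granulocyte receptor gene Csf3r had 5. Cebpe, a factor of late granulocytes, reached 118-fold and the receptor gene Csf2ra 95.1-fold. The rule of assignment set no limit on the distance to the TSS. The strongest peaks of Gata3 (440.0 kb), Maf (172.8 kb), Id2 and Csf3r lay over 100 kb from the gene's nearest TSS. Those of Ikzf1, Foxo1, Flt3, Zeb2, Cebpe and Csf2ra lay within 100 kb. No listed peak was nearest to Rag1, Rag2, Cd3e, Lck, Elane or Lyz2, genes of maturing lymphocytes and myeloid cells.

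Which gene a peak belonged to rested on the rule at 4 of the 5 bound loci. Where start sites of non-coding genes also competed for a summit, Ebf1 had 3 peaks, Tcf7 1 and Pax5 0. The start of Gm12462 lay nearer to the Pax5 peak. The 259-fold peak and its neighbour at 7.28-fold went to Gm12158, so the highest peak left to Ebf1 was 13.9-fold, and Spi1 had the most peaks. With a limit of 100 kb to the TSS the 259-fold peak was again lost, and Ebf1 had 2, both near a non-coding transcript's start, since no Ebf1 peak lay within 100 kb of a coding one. Where a peak had to lie in the gene or within 10 kb of it, Irf8 had 0 and Tcf7 1, while Ebf1 and Pax5 had as many as before. Spi1 had 4 under every rule of assignment, and 2 of these were enriched at least 10-fold. Cebpa and Il7r had 0 under all rules and thresholds tried.

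**Figure D5:**
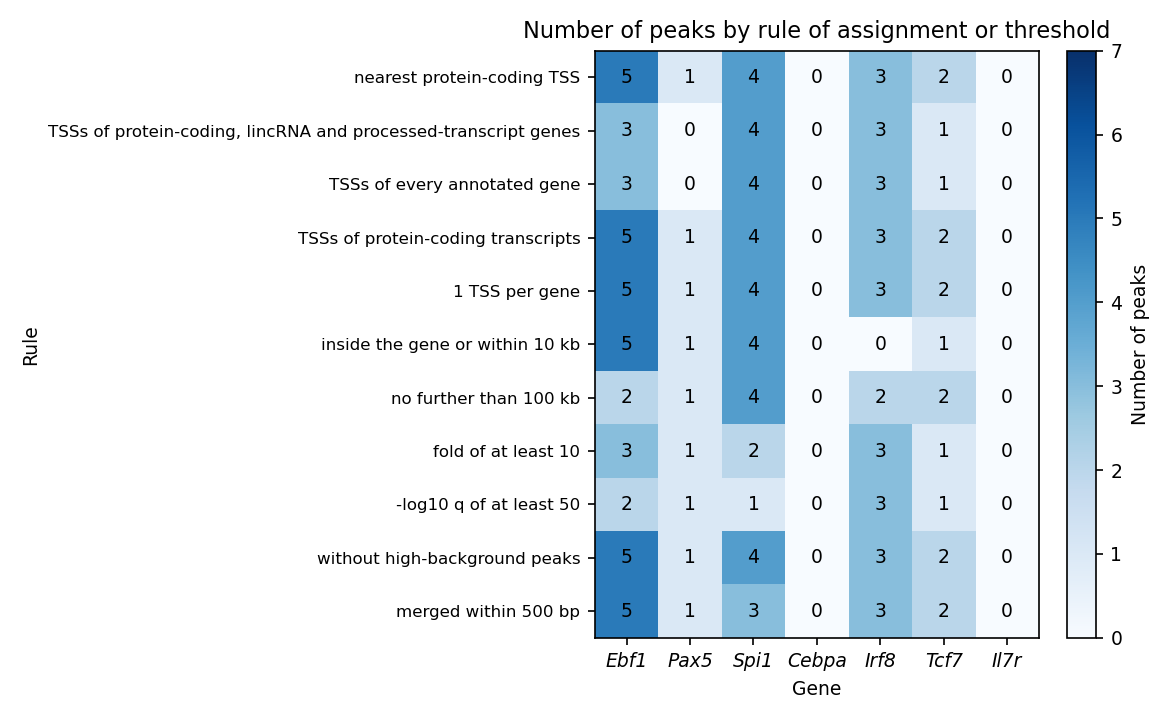
Number of peaks for each gene (columns, shade and figure in the cell) under the rule used, 6 other rules of assignment and 4 other thresholds or groupings (rows). Spi1 stays at 4 under every rule of assignment, Pax5 and Irf8 each drop to 0 under some, and Cebpa and Il7r stay at 0.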

How the data were processed

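The authors aligned reads to mm9 with Bowtie 1.1.2, removed duplicates, called peaks with MACS2 2.0.10 and set the list by the irreproducible discovery rate. The peak names show merged replicates, so depth per library and spread between libraries were not analysed here. The deposited list gives for each peak a score, a fold enrichment (a ratio), the −log10 p-value and the −log10 q-value. These are the authors' values, and the score was not used. Pileup and background were solved from fold and p, as MACS2 defines them, to within 0.001 of the deposited −log10 p in 99.9% of peaks. Summits were assigned with every TSS of protein-coding genes in GENCODE vM1, and sequence came from NCBIM37 (Python 3.11.15, pandas 2.3.3, scipy 1.17.1). The members and gene lists were chosen with earlier results of these data known. Named in full were all 7 genes, with the strongest peak of each and others at or above the upper quartile of fold, and, from each list, the 3 genes with the most peaks and the 3 with the highest fold. No p-value was computed. Alternatives changed the rule of assignment, the thresholds, the merging of peaks and the motif window.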

Additional observations from a re-analysis of the deposited data

How the results depend on the processing

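Of 103 values under alternative settings, 87 stayed within 1.5 times of the value given or within its interval and 16 moved. With TSSs of protein-coding, lincRNA and processed-transcript genes, and likewise with those of every annotated gene, Ebf1 had 3 peaks, Pax5 0 and Tcf7 1. With peaks inside the gene or within 10 kb, Irf8 had 0 and Tcf7 1. With no more than 100 kb to the TSS, Ebf1 had 2. With a fold of at least 10, Ebf1 had 3, Spi1 2 and Tcf7 1. With a −log10 q of at least 50, there were 8 peaks in all, of which Ebf1 had 2, Spi1 1 and Tcf7 1. These changes follow from the construction of each setting, which admits other TSSs or fewer peaks. Positions from TSSs of coding transcripts alone were chosen after seeing the data and are not among the 103 values. There, 3 peaks were upstream in place of 6. Merging peaks within 500 bp gave 14. The median fold ran from 11.4 to 22.0. Under the fold threshold it was 15.4 and under the q threshold 22.0, below the whole list in both (18.2 and 23.9), whereas without these thresholds it was above it (11.7 against 11.1), so the order of these peaks and the list turned. The composite stood at 35.7% to 53.3% of the peaks, while the whole list's share ran from 33.0% to 47.5%. No paired analysis was possible because no library has values of its own in a merged call, and for the same reason leaving out a replicate was not run. The lowest pileup in the list, 24 fragments, limits what weaker binding could be seen.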
